A study of Arabidopsis thaliana with 12 samples.

Results

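The genes described here are those whose array signal was highest in water-treated Arabidopsis plants, among probes that name a single gene. Each of 692 such probes was placed by the mean of its deposited intensities over the 6 water arrays, and the top 10% (69 probes) were kept. After 9 genes named in the rule were taken out, 60 probes remained, of 3439 on the array. All 60 matched a gene of the reference table. The plants were wild type, ecotype Landsberg. They received either 500 µM bromoxynil (6 arrays) or water (6 arrays), and all were collected after 30 min of light that ended a 12 h dark period. The labels name no tissue and do not say whether different arrays hold RNA of different plants. The p-values below therefore reflect array-to-array spread alone, part or all of which may be technical.

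Bromoxynil is a nitrile herbicide that binds at the plastoquinone site of photosystem II and stops electron flow out of it. In green tissue, the return of light after darkness sets electron transport and the redox signals of the plastid going again, and many nuclear genes for plastid proteins respond to these signals. The array was built from tags of nuclear genes, most of them for proteins predicted to enter the plastid. Probe signal depends on the length and binding of the tag as well as on the amount of RNA. A rank within an array is therefore an order of signal, not a measured order of transcript abundance. Gene names are those of the platform annotation and were not checked against probe sequences.

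The median deposited intensity ran from 0.624 to 0.654 over bromoxynil arrays and from 0.443 to 0.491 over water arrays, on a scale where the brightest feature is 100. Of 11 green-tissue genes listed as markers, 7 were measured, and their mean ranks ran from 3 to 504.5 on bromoxynil arrays and from 3.5 to 289 on water arrays. Of the markers listed for seed, root and senescing leaf, 0 were measured, so those sources could not be checked. Arrays with the same number in the titles deviated from their group means together, at correlations of 0.323 to 0.418 over all probes. Consecutive numbers (1 with 2, 3 with 4, 5 with 6) ranked the 60 probes almost alike.

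Ranks were taken within each array over the 692 probes, with 1 the brightest. They are the same under any scaling that keeps order. The members were chosen on the water arrays, so their ranks there are a description, and lower signal with bromoxynil is favoured by the choice itself. The bromoxynil arrays were not used to choose them. By mean intensity over those arrays, 33 of the 60 (55.0%) were again among the 69 brightest probes and 27 were not. On all 6 bromoxynil arrays 26 members ranked within the first 69, on 1 to 5 arrays 16 did, and on no array 18 did. The median of the members' mean ranks was 64.5 on bromoxynil arrays and 47.3 on water arrays. Every member kept a mean rank within the first 346 on bromoxynil arrays, and 53 were within the first 173.

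**Figure D1:**
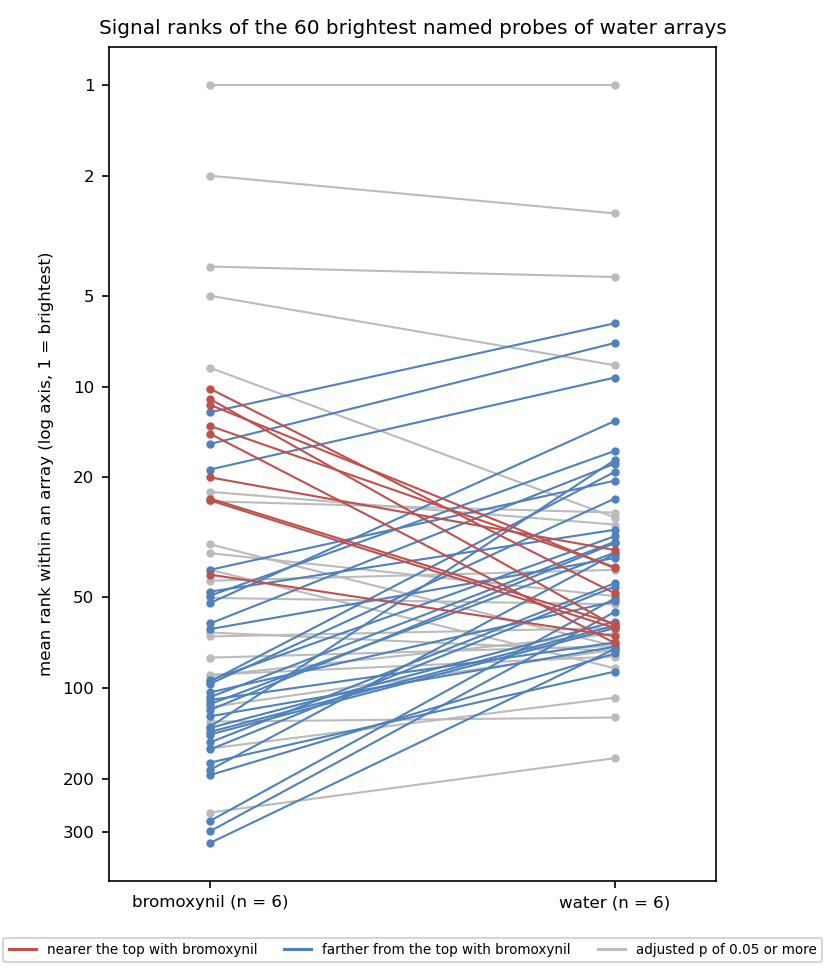
Mean signal rank of each of the 60 probes on the 6 bromoxynil arrays (left) and the 6 water arrays (right), on a log axis with rank 1 at the top. The 9 red lines mark probes nearer the top with bromoxynil and the 30 blue lines probes farther from it (adjusted exact permutation p under 0.05). The line at rank 1 is AT3G09850, and the lowest point on the left is AT1G54500 at 326.

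In an exact permutation test of ranks over every assignment of arrays to groups, adjusted over the 692 probes, 30 members lay farther from the top with bromoxynil and 9 lay nearer to it. Over all 692 probes the test called 49.7%, with 27.7% farther and 22% nearer. On quantile-normalised log2 values (limma, adjusted over 3439 probes), 28 members were lower and 12 higher with bromoxynil, where 54.4% of all probes were called, 29.9% lower and 24.5% higher. Among the 692 probes of 1 gene limma called 51.6%, with 25.7% lower and 25.9% higher. The median log2 change was -0.31 over the members and -0.04 over all probes. Because the choice used the water arrays, nothing is read from the excess of lower calls. The mirror choice tilts toward its own arrays too. The 69 probes brightest on bromoxynil arrays had a median mean rank of 43.7 there and 72.5 on water arrays. Those brightest on water arrays, before any gene was taken out, had 63.7 with bromoxynil and 44.8 with water. With each array centred on its median instead, 33 members were lower and 3 higher, against 34% lower and 20.6% higher over all probes. On the values as deposited 22 were lower and 12 higher, against 18.6% lower and 37.8% higher over all probes. With consecutive arrays averaged to 3 values a group, 21 members were lower and 5 higher, against 20.7% lower and 15.1% higher over all probes. When arrays of the same number were paired, the sign-flip permutation test of ranks had a smallest possible p of 0.03125. It called 0 members after adjustment. At an unadjusted p under 0.05, 30 members lay farther and 8 nearer, and 52.5% of the 692 probes also reached it. The sign-flip test still counted consecutive arrays as separate.

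The first place was the same in both groups. AT3G09850, a protein with the glycine-rich G-patch domain of RNA-binding proteins, ranked 1 on all 12 arrays. Its deposited intensity was 46.0, 57.3 and 72.3 (lowest, median, highest) with bromoxynil, against 27.1, 39.4 and 66.5 with water, and the groups overlapped. Its log2 change was 0.50 ± 0.20 (SE, n = 6 per group; limma adjusted p = 0.0561). AT2G27290 ranked 2 on every bromoxynil array and between 2 and 5 on water arrays. It had intensities of 26.3, 28.5 and 30.0 with bromoxynil, against 18.0, 19.7 and 28.1 with water, and water arrays 1 and 2 lay within the bromoxynil range. Its rise of 0.59 ± 0.10 passed on quantile-normalised values (limma adjusted p = 0.000464), but the change was -0.069 with medians centred. AT4G31530, a protein with a nucleotide-binding Rossmann fold, ranked 4 on every bromoxynil array and between 2 and 8 on water arrays. Its log2 change of 0.23 ± 0.17 did not pass, and was -0.50 with medians centred (limma adjusted p = 0.0371) and 0.76 after the place adjustment (limma adjusted p = 0.00149).

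CCL (AT3G26740, CCR-like), whose short-lived transcript is under control of the circadian clock, ranked 5 on all 6 bromoxynil arrays and between 4 and 13 on water arrays. Its intensity was 8.86, 9.55 and 16.1 with bromoxynil, against 3.67, 9.76 and 18.6 with water. The bromoxynil values lay inside the water range, and the log2 change of 0.70 ± 0.37 did not pass (limma adjusted p = 0.131). Without water array 6 it did pass, at 0.92, and with medians centred it was -0.03.

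Below these, 5 of the 10 probes with the highest water mean were lower with bromoxynil, with no overlap between the groups in signal or rank. Ranks did not overlap for 33.4% of the 692 probes, and the like share for signal was not counted. The choice by water mean favours lower values with bromoxynil. CUTA (AT2G33740), a copper-binding protein of the plastid, had intensities of 3.16, 3.51 and 4.74 with bromoxynil, against 9.70, 10.4 and 12.5 with water. Its log2 change was -1.19 ± 0.13 (limma adjusted p = 1.81e-05), and it ranked 15 to 17 with bromoxynil and 6 to 8 with water. AT1G62250 had 3.57, 4.23 and 5.93 with bromoxynil, against 10.3, 12.6 and 14.4 with water (log2 -1.18 ± 0.15). After an adjustment for where a probe lies among the probe numbers, that change was -0.48 and passed, but it did not pass when consecutive arrays were also averaged and blocked.

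AT2G33180 had 2.04, 3.16 and 3.78 with bromoxynil, against 6.09, 7.77 and 10.9 with water, a log2 change of -1.15 ± 0.21. AT4G31470, a secreted protein of the CAP family that includes PR-1, had 1.51, 1.64 and 2.36 with bromoxynil, against 4.74, 5.31 and 5.41 with water. It changed most of these 5 on quantile-normalised values, by -1.45 ± 0.14 on the log2 scale. Its mean rank was 52.2 with bromoxynil and 13.0 with water. AT2G37510, an RNA-recognition motif protein, had 1.61, 1.79 and 1.95 with bromoxynil, against 2.84, 3.71 and 5.24 with water (log2 -1.03 ± 0.13). The remaining one of the 10, the pentatricopeptide repeat protein AT3G13150, ranked 6 to 12 with bromoxynil and 9 to 75 with water, and its log2 change of 0.95 ± 0.44 did not pass.

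**Figure D2:**
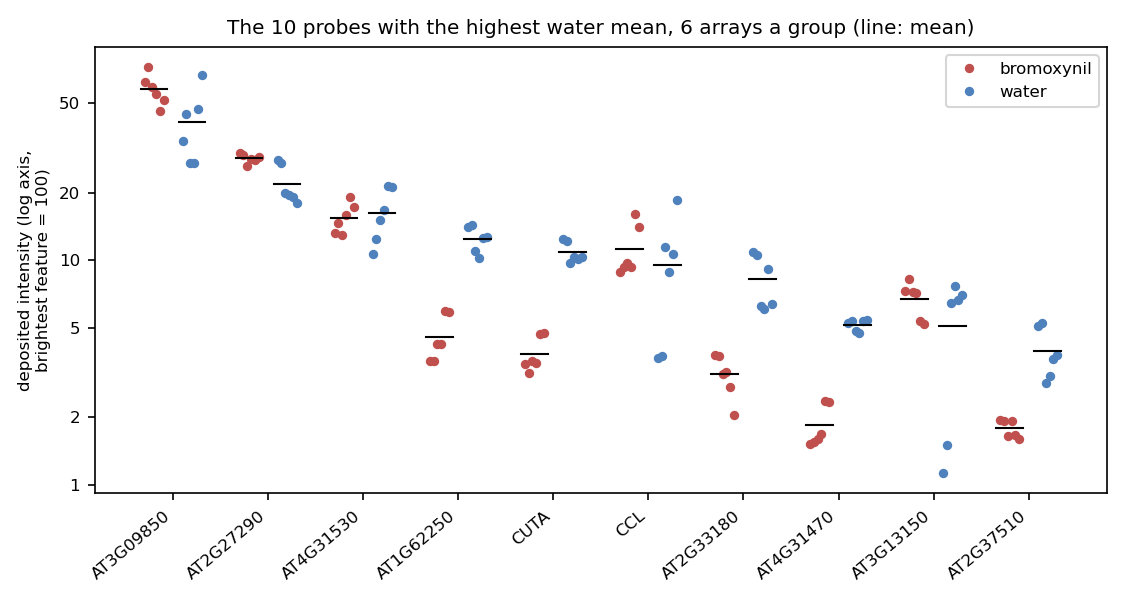
Deposited intensity (log axis, brightest feature 100) of the 10 probes with the highest water mean, with 6 bromoxynil arrays in red left of 6 water arrays in blue; black lines are means and points run from array 1 to array 6. CUTA, AT1G62250, AT2G33180, AT4G31470 and AT2G37510 do not overlap between groups, while AT3G09850 to AT4G31530, CCL and AT3G13150 do.

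The counts by function that follow are on log2 values, where limma called 29.9% of all probes lower and 24.5% higher, and the choice on water arrays favours falls in every group. Nothing is read from them about a function. Among members with a role in photosynthesis or thylakoids, 2 rose and 1 fell. AT3G47650 (BSD2), a chaperone that holds Rubisco large subunits during assembly, had intensities of 2.35, 2.38 and 2.50 with bromoxynil, against 0.996, 1.35 and 1.56 with water. It rose 1.75-fold (log2 0.81 ± 0.08, limma adjusted p = 1.02e-05) and ranked 21 to 25 with bromoxynil, against 46 to 94 with water. The call was lost in 1 of 21 alternatives, with place adjustment, averaging and block together (log2 0.53, limma adjusted p = 0.0628). FZL (AT1G03160), a dynamin-like GTPase that shapes thylakoids, had 1.63, 1.92 and 2.19 with bromoxynil, against 1.16, 1.30 and 1.35 with water, with no overlap. Its rise of 0.43 ± 0.09 shrank to 0.02 after the place adjustment and 0.10 with medians centred, and neither passed. After the place adjustment its rank lay 5.67 places farther from the top with bromoxynil.

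AT1G54500, a rubredoxin that accumulation of photosystem II depends on, made the largest move in rank of all 60. Its intensity was 0.576, 0.678 and 0.699 with bromoxynil, against 1.04, 1.14 and 1.57 with water, a log2 change of -1.19 ± 0.09 (limma adjusted p = 1.45e-06). It ranked between 303 and 365 with bromoxynil, against 45 to 94 with water, a loss of 252 places. Places lost depend on where a probe starts: CUTA, also at -1.19 on the log2 scale, lost 8.33. The fall of AT1G54500 passed in every one of 21 alternatives. AT5G10910, a methyltransferase of ribosomal RNA related to bacterial MraW, was the only member placed under translation. It had intensities of 0.964, 1.21 and 1.33 with bromoxynil, against 1.06, 1.20 and 1.40 with water, while its ranks did not overlap, at 98 to 163 with bromoxynil and 57 to 90 with water. Its log2 change was -0.34 ± 0.09 on quantile-normalised values and -0.87 after the place adjustment, but -0.06 and not past the threshold on the values as deposited.

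Proteins that bind or act on nucleic acids made up 13 of the 60, of which 8 fell, 1 rose and 4 did not pass. On quantile-normalised values the largest fall in this group was that of AT4G14050, a pentatricopeptide repeat protein, followed by that of AT2G37510. AT4G14050 had 0.679, 0.729 and 0.880 with bromoxynil, against 1.20, 1.48 and 2.44 with water (log2 -1.36 ± 0.16). It ranked 223 to 320 with bromoxynil and 24 to 71 with water. AT1G44830, a transcription factor of the AP2/ERF family, had 0.939, 1.26 and 1.38 with bromoxynil, against 1.67, 1.93 and 2.42 with water (log2 -0.88 ± 0.11). Another RNA-recognition motif protein, AT3G08000, changed by -0.88 ± 0.12 and by -1.47 after the place adjustment. The mean rank of AT3G08000 was 159.5 with bromoxynil and 46.0 with water.

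The other falls of the group were less stable. The transcription factor bHLH14 (AT4G00870), a repressor in jasmonate responses, had a log2 change of -0.56 ± 0.10 and stayed within ranks 35 to 46 with bromoxynil, against 14 to 27 with water, but its change was 0.04 after the place adjustment. The pseudouridine synthase AT2G30320 (log2 -0.54 ± 0.09), the pentatricopeptide repeat protein AT2G19280 (-0.38 ± 0.15) and OTP70 (AT4G25270, -0.54 ± 0.17), which serves splicing of a plastid intron, also lost the call there. The CCCH zinc finger protein AT3G21810 did not pass, at -0.38 ± 0.24, but passed at -1.06 after the place adjustment.

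Pentatricopeptide repeat proteins bind organelle RNA and act in its editing, splicing and stability. Of the 6 among the members, 3 fell, 1 rose and 2 did not pass. AT3G26630 rose, with 2.88, 4.03 and 4.75 with bromoxynil, against 0.745, 1.91 and 3.22 with water, a log2 change of 1.26 ± 0.32 (limma adjusted p = 0.00575). The groups overlapped: water arrays 1 and 2 were above the lowest bromoxynil arrays. With consecutive arrays averaged the limma adjusted p was 0.0873, and with medians centred the change was 0.73 and did not pass either. The rise did pass with arrays of the same number blocked (limma adjusted p = 0.000802), a fit that counted consecutive arrays as separate. After the place adjustment it passed at 1.61 (limma adjusted p = 0.000851). AT3G49740 had a log2 change of 0.01 ± 0.23, with mean ranks of 65.3 with bromoxynil and 75.2 with water.

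Of 5 members in protein folding and turnover, 3 rose, 1 fell and 1 did not pass. XERICO (AT2G04240), a RING-H2 zinc finger protein that raises abscisic acid, had 2.44, 2.74 and 3.02 with bromoxynil, against 1.66, 1.93 and 2.14 with water, with no overlap. It rose by 0.61 ± 0.09 on the log2 scale (limma adjusted p = 0.000197) and ranked 17 to 23 with bromoxynil, against 30 to 41 with water. With medians centred its change was 0.06 and did not pass. Both other rises had wide water values. The cyclophilin-like AT4G17070 (log2 1.41 ± 0.43) ranked 6 to 20 with bromoxynil and 15 to 199 with water. The F-box protein AT4G39760 (1.33 ± 0.45) ranked 10 to 12 with bromoxynil and 12 to 175 with water. Neither passed with consecutive arrays averaged (limma adjusted p = 0.0808 and 0.164) or with medians centred. With arrays of the same number blocked, but consecutive arrays counted as separate, both passed (limma adjusted p = 0.000119 and 0.0330). After the place adjustment AT4G17070 passed at 2.06 (limma adjusted p = 0.00128) and AT4G39760 did not. The rank difference of AT4G17070, bromoxynil minus water, was -38.3 places with water array 1 and -8.23 places without it, where the rank call was lost.

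The DnaJ domain protein AT1G21660 had 0.890, 1.12 and 1.70 with bromoxynil, against 2.90, 3.11 and 4.23 with water. Its log2 change of -1.51 ± 0.20 was the largest fall among the 60 on quantile-normalised values, and was -0.89 after the place adjustment. Its mean rank was 134 with bromoxynil and 17.5 with water. The ubiquitin ligase of the copine type AT1G67800 had mean ranks of 33.3 with bromoxynil and 72.5 with water, and its log2 change of 0.46 ± 0.23 did not pass (limma adjusted p = 0.110). Without water array 6 it passed, at 0.60, and without water array 5 at 0.58.

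Enzymes of metabolism and redox were the largest group with known roles, at 15 members, of which 4 rose, 6 fell and 5 did not pass. The largest rises in this group were those of sugar-transferring enzymes. AT4G19900, of a glycosyltransferase family, had 4.77, 5.11 and 6.67 with bromoxynil, against 1.45, 1.66 and 2.80 with water. It rose 3.23-fold (log2 1.69 ± 0.15, limma adjusted p = 3.27e-06), the largest rise among the 60 on quantile-normalised values. It ranked 9 to 14 with bromoxynil, against 19 to 62 with water. AT1G35510, of the O-fucosyltransferase family, had 3.56, 4.13 and 5.16 with bromoxynil, against 1.16, 2.01 and 2.39 with water. It rose 2.45-fold (log2 1.30 ± 0.18). These were the only rises among the members that passed in all 21 alternatives.

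Another glycosyltransferase, AT1G73740, had a log2 change of 0.53 ± 0.21 (limma adjusted p = 0.0470), and 0.05 after the place adjustment. Its call was also lost in 8 of 12 fits that left out 1 array. AT2G22890, a relative of the plastid fatty acid desaturase FAD4, had a change of 0.35 ± 0.12 and of 0.69 after the place adjustment, but of -0.17, not past the threshold, with medians centred.

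Both carbohydrate kinases of the pfkB family fell. AT1G17160, a plastid ribokinase, had 0.849, 0.935 and 1.19 with bromoxynil, against 1.75, 1.80 and 2.05 with water. Its log2 change was -1.16 ± 0.10 (limma adjusted p = 2.51e-06), and its mean rank was 186 with bromoxynil and 35.8 with water. AT1G50390 changed by -0.54 ± 0.09, but by 0.02 after the place adjustment. AT1G72640, with a Rossmann fold, changed by -0.75 ± 0.13, and DRT101 (AT5G18070), a phosphoacetylglucosamine mutase, by -0.71 ± 0.11. For DRT101 the place adjustment gave -0.12, which was not called. The oxygenase AT3G11150 changed by -0.51 ± 0.12 and cyanase (CYN, AT3G23490), which breaks down cyanate, by -0.29 ± 0.11. Intensities of AT3G11150 overlapped between the groups. Its fall did not pass on deposited values (-0.24, limma adjusted p = 0.133) or with averaged arrays (0.0651). The fall of CYN passed in 8 of 22 settings. It did not pass with the replicate block (limma adjusted p = 0.0691), on deposited values (0.105) or with averaged arrays (0.202), and the change was 0.23 and not past the threshold after the place adjustment.

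Of the other enzymes not called, the choline monooxygenase-like AT4G29890 ranked 34 to 56 with bromoxynil and 32 to 50 with water (log2 0.03 ± 0.08). AT1G01500, of the erythronate-4-phosphate dehydrogenase family, had a log2 change of -0.25 ± 0.25, and the methyltransferase-like AT2G26680 of -0.22 ± 0.26. The rhodanese-like AT4G27700 had -0.02 ± 0.53. A kinase-family protein, AT2G40980, was the only member under signalling and fell, with a log2 change of -1.30 ± 0.20. After the place adjustment that change was -0.63 and passed. The call was lost with place adjustment, averaging and block together (limma adjusted p = 0.0504). The aquaporin-like AT2G29870, the only one under transport, had a log2 change of 0.04 ± 0.28. After the place adjustment AT4G29890 passed at 0.67, AT2G29870 at 0.82 and AT1G01500 at -0.79.

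**Figure D3:**
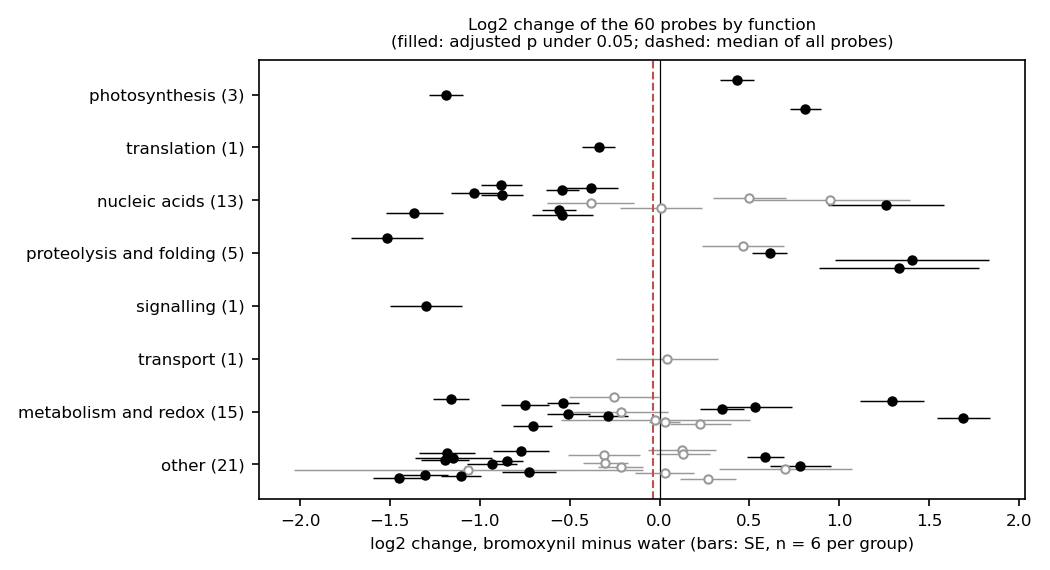
Log2 change, bromoxynil minus water on quantile-normalised values, of each of the 60 probes by function, with SE bars (n = 6 per group); filled points passed limma at an adjusted p under 0.05. Of 13 nucleic acid proteins 8 fell and 1 rose, where 29.9% of all probes were lower and 24.5% higher, and the rightmost point is the glycosyltransferase AT4G19900 at 1.69.

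The other 21 members hold proteins of other or no known role; 14 of the 60 were given no role. Of the 21, 10 fell, 2 rose and 9 did not pass. AT4G20690 had 0.597, 0.726 and 0.823 with bromoxynil, against 1.21, 1.33 and 1.82 with water, a log2 change of -1.30 ± 0.13 (limma adjusted p = 5.94e-06). It lost 242 places, to ranks of 218 to 378 with bromoxynil against 37 to 73 with water. AT4G27390 had a change of -1.11 ± 0.11 and mean ranks of 96.7 with bromoxynil and 23.5 with water. The WD40 repeat protein AT3G09080 changed by -0.93 ± 0.14 and AT2G46910, a fibrillin of plastid lipid bodies, by -0.85 ± 0.09. After the place adjustment these changes were -0.44 and -0.27. Neither passed with place adjustment, averaging and block together (limma adjusted p = 0.231 and 0.238). AT2G46910 had a mean rank of 151 with bromoxynil and 44.8 with water. AT1G13990 (log2 -0.77 ± 0.16) and AT3G54550 (-0.73 ± 0.15) fell too, and neither passed with consecutive arrays averaged.

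AT3G19810 rose by 0.78 ± 0.17, with 2.22, 2.34 and 2.86 with bromoxynil, against 1.08, 1.24 and 2.12 with water. It ranked 18 to 29 with bromoxynil and 29 to 85 with water, and its change was 0.26, not past the threshold, after the place adjustment. The 9 that did not pass include CCL and AT3G51500. With the replicate block AT3G51500 did pass, at -1.06 (limma adjusted p = 0.0133, against 0.382 without the block), and each of its 6 bromoxynil arrays was below the water array of the same number. AT2G47360 passed with the block too (limma adjusted p = 0.0173). The block counted consecutive arrays as separate. On the log2 scale the differences of the other 7 were 0.03 for AT4G13680, -0.30 for AT2G47360, 0.27 for AT5G06790, 0.13 for the lectin-like AT1G07460, -0.31 for AT2G26110, 0.13 for AT2G11270 and -0.22 for the tetratricopeptide repeat protein AT3G26580. AT4G13680 ranked 19 to 29 with bromoxynil and 19 to 37 with water, and passed at 0.65 after the place adjustment. Of these, AT2G47360 and AT3G26580 did pass the rank test, both farther from the top with bromoxynil (exact permutation adjusted p = 0.0166 and 0.0443).

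Water arrays disagreed with each other over these probes more than bromoxynil arrays did. Across the 60, Spearman's rho between arrays of consecutive numbers was 0.948 to 0.983 with bromoxynil and 0.898 to 0.956 with water. Between other arrays of a group it was 0.834 to 0.931 with bromoxynil and 0.429 to 0.785 with water. Over all 692 probes the corresponding values between other arrays were 0.878 to 0.946 with bromoxynil and 0.750 to 0.865 with water. These are descriptions across probes that share arrays, and the choice by water mean narrows the range on the water side. The members' median coefficient of variation was 13.0% with bromoxynil and 21.4% with water. For 11 members it was over 40% on water arrays. Choice by a water mean can let in probes that a few bright water arrays lifted. The share of the 692 probes over 40% was not taken, so nothing is read from these coefficients.

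Some of the probes with the widest water values differed by array number. AT3G51500 had the means 2.14, 0.129 and 1.16 over bromoxynil arrays 1 and 2, 3 and 4, and 5 and 6, against 3.11, 0.323 and 2.32 over water arrays of the same numbers. Arrays 3 and 4 were thus lowest in both groups. AT4G27700 was lowest on array 1 in both groups, at 0.387 with bromoxynil and 0.344 with water. AT4G39760 was flat with bromoxynil, with means of 5.35, 5.19 and 5.36, against 0.762, 2.81 and 5.54 with water. AT3G26630 had means of 4.74, 4.03 and 2.90 with bromoxynil, against 3.12, 1.91 and 0.776 with water, in the same order in both groups. What the array numbers share is not given in the labels, and their part in these values was not tested.

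**Figure D4:**
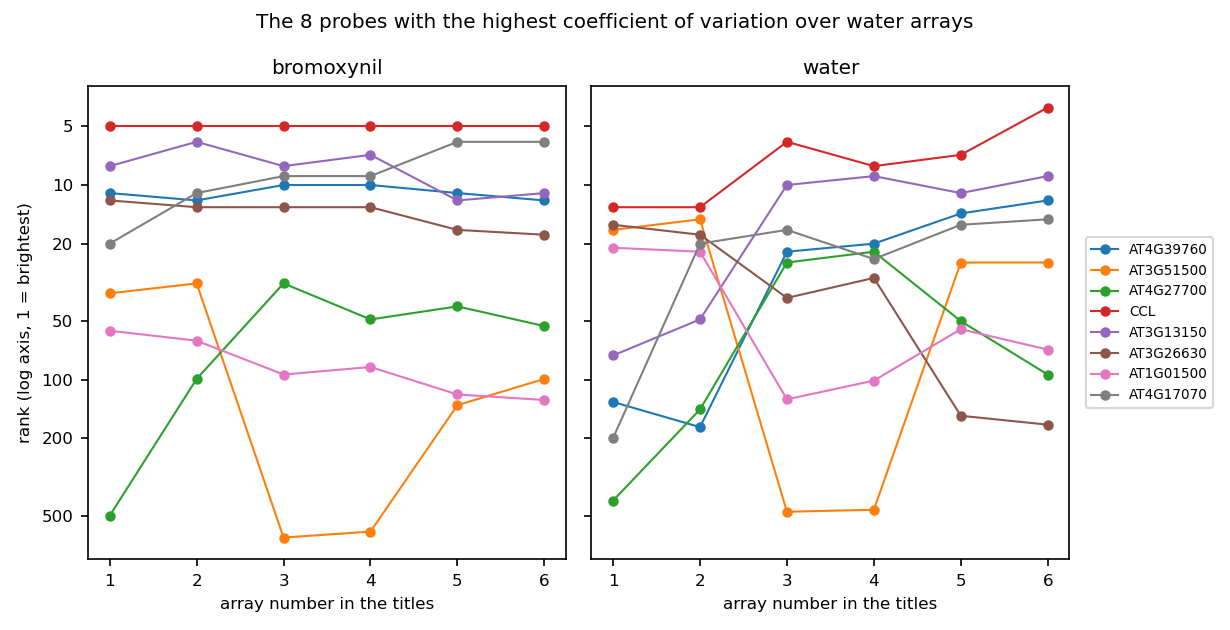
Signal rank (log axis, 1 brightest of the probes naming 1 gene) on each array, by the number in the titles, of the 8 probes with the highest coefficient of variation over water arrays; bromoxynil arrays on the left, water arrays on the right. CCL stays at 5 on all bromoxynil arrays, and AT3G51500 is lowest on arrays 3 and 4 of both groups.

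At the lower edge of the choice, the last members were AT1G54500, AT3G21810 and OTP70, with water means of 1.20 ± 0.195, 1.20 ± 0.471 and 1.20 ± 0.352 (SD, n = 6). The first probes outside were AT2G14660 at 1.19 ± 0.186, AT2G32040 at 1.19 ± 0.134 and ATSIK (AT3G08760) at 1.18 ± 0.154. The spread of each over water arrays was larger than the steps between them. When 1 water array was left out of the choice, 57 to 59 of the 60 were chosen again.

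With bromoxynil, 31 probes entered the brightest 69 that were not there with water, so that 38 of 69 (55.1%) were shared by the lists. Entrants were chosen for being bright with bromoxynil and less so with water. The direction of their differences is thus fixed by the choice, and the values below are a description. The 5 entrants with the highest bromoxynil mean were AT2G30100, AT5G58330, AT3G23940, AT1G74070 and AT3G06870. AT5G58330, the plastid NADP-malate dehydrogenase that thioredoxin activates in light, had 2.22, 2.41 and 2.93 with bromoxynil, against 0.368, 1.01 and 1.26 with water. AT3G23940, a dehydratase on the route to valine, leucine and isoleucine, had 2.08, 2.50 and 2.86 with bromoxynil, against 0.239, 0.350 and 0.394 with water. Their mean ranks were 23.3 and 25.2 with bromoxynil, against 177 and 437 with water. Those of AT2G30100, AT1G74070 and AT3G06870 were 22.2, 23.7 and 24.3 with bromoxynil, against 293, 173 and 287 with water. Mean ranks of the 31 entrants on water arrays ran from 80.5 to 561, with a median of 217.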

How the data were processed

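Intensities of 12 arrays were taken as deposited. The authors scaled them so that 1 feature is at 100 on every array, as the values show. The scanner, background correction and spot averaging are not stated in the labels, and signal over background was not measured. The number of arrays limits the precision.

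A zero took the smallest positive value of its array, and log2 values were quantile-normalised, because array medians spanned 0.56 in log2 (deposited medians were 0.46 higher with bromoxynil). Probes were tested with limma 3.58.1 in R 4.3.3 (lmFit, eBayes, Benjamini-Hochberg over 3439 probes, threshold 0.05). Ranks were tested by exact two-sided permutation, smallest p 0.00216. A rank can move because other probes move. Both tests were tested on simulated data. The simulated arrays for limma were independent of each other, unlike these arrays, so that test gives no rate of false calls for these data. Same-number arrays correlated above 0.1 in every pair, so the numbers were taken to pair arrays in the replicate block and sign-flip test. That reading rests on the values and not on the labels. The main limma fit and permutation test of ranks did not use the pairing. They counted nearly alike consecutive arrays as separate, and so did the replicate block and sign-flip test. The p-values of all of these, and the SE, may thus be too small. The place adjustment subtracts the median of probes within 6 places in a repeat of 288 probe numbers, then that of 12 columns. Python 3.11.15 was used for ranks and matplotlib 3.10.9 for plots.

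Members, lists and tests were chosen with earlier results of these data known. Gene descriptions were not used here, so the function groups were made by hand from gene names and known roles, after the values were seen. Named genes were the 10 highest water means, the 8 largest rank moves each way, photosynthesis and translation members, the edge of the choice and 5 entrants; the rest are named so that all 60 appear. Of the 692 probes, 690 matched the TAIR10.1 table, used for names only.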

Additional observations from a re-analysis of the deposited data

Results flagged for a closer look

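Of 60 groups of 6 arrays examined among the named genes, 1 had a single array well apart from the remaining 5; about 5% of groups would be marked by chance. AT1G54500, the rubredoxin, was at 0.576 on bromoxynil array 5, against 0.671 to 0.699 on the other bromoxynil arrays.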

How the results depend on the processing

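Of the 40 calls on log2 values, 12 falls and 2 rises passed in the same direction in all 21 alternatives: the falls of CUTA, AT2G33180, AT4G31470, AT2G37510, AT1G21660, AT4G27390, AT1G44830, AT1G17160, AT4G14050, AT3G08000, AT4G20690 and AT1G54500, and the rises of AT4G19900 and AT1G35510. Higher members numbered 3 with medians centred and 5 with consecutive arrays averaged, against 12, and lower members numbered 16 with place adjustment, averaging and replicate block together, against 28; that combination was chosen after seeing the data. With 1 array left out, 10 to 14 members were higher and 26 to 28 lower. The replicate block alone gave 12 higher and 29 lower; it added AT3G51500 and AT2G47360 and lost CYN. With medians centred the log2 change of AT2G27290 was -0.069 and that of AT4G31530 was -0.50. For ranks, the replicate block called 0 members either way (smallest p 0.03125). Left-out arrays gave 6 to 11 nearer and 28 to 30 farther. Without any 1 bromoxynil array, AT3G26630, AT4G39760 and AT4G17070 lost the rank call, though their rank differences hardly changed. That of AT4G39760 was -51.2 places with all arrays and -51.0 to -51.4 places with 1 bromoxynil array left out. Averaged consecutive arrays did not overlap in rank for 8 nearer and 28 farther, where 49.6% of the 692 probes did not, and an exact permutation test of 3 against 3 cannot go below p = 0.1. After the place adjustment FZL was 5.67 places farther from the top with bromoxynil. The count of members among the brightest probes with bromoxynil was 17 of 29 for a 5% choice and 75 of 129 for a 20% choice, and 32 to 34 of 60 with 1 array left out. Choosing on place-adjusted values kept 48 of the 60. Depth and background per probe are unknown, so dim values have no stated limit.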
